A study of Monascus purpureus with 6 samples.

Results

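The block of neighbouring genes described here runs from MAP00_007450 to MAP00_007472 in Monascus purpureus, a filamentous fungus cultured for its red and yellow pigments. With 4 flanking genes on each side, MAP00_007446 to MAP00_007476, it comes to 31 genes, of 9836 in the deposited tables. The genes were chosen by consecutive locus tags, and the limits of the block were set from the difference between metal-ion and control mycelia in these same libraries. Fold changes between the groups are therefore given as a description, and the calls of the test over all genes support nothing about the block.

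RNA was sequenced from mycelia of wild-type strain MP2022, all at day 1, in 3 metal-ion and 3 control libraries. Metal-ion mycelia, a condition that the titles call optimized, were labelled as treated, with ZnSO4·2H2O at 0.0 g/L and MgSO4·2H2O at 2.5 g/L. Control mycelia were labelled as untreated, beside amounts of 2.0 g/L for the zinc salt and 1.0 g/L for the magnesium salt, so whether the control medium held these salts cannot be told from the labels. The series title places the comparison in a search for a zinc and magnesium balance that serves bioethanol and pigments together. The labels do not tie the replicates to different cultures, and the spread between libraries may be technical.

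Monascus pigments are azaphilones, compounds built from a polyketide. In filamentous fungi the genes for such a compound often lie side by side, with large multidomain synthases for the carbon skeleton next to smaller tailoring enzymes, transporters and regulators, and they are often switched on together. No product name was available for the 31 genes, and CPR6 (MAP00_007449), a flanking gene named for a cyclophilin that works with the Hsp90 chaperone in Saccharomyces cerevisiae, was the only member with a symbol. The link of the block to pigments was thus not checked here, and its genes are described by locus tag, length and level without a role.

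Libraries held 35314601 to 38927910 counts in the metal-ion group and 33638067 to 36537672 in control. Over the 9048 genes that passed the low-count filter, 1084 (12%) were called at an adjusted p under 0.05 in edgeR's quasi-likelihood test with Benjamini-Hochberg adjustment, 603 higher and 481 (5.32%) lower in metal-ion mycelia; scaling by total counts alone gave 860 higher and 344 lower. Metal-ion replicate 2 stood apart from its group: in a principal component analysis of log2 CPM over tested genes, its first score was 9.28, against 26.3 and 27.4 for metal-ion replicates 1 and 3 and -24.2 to -18.6 for the control libraries. Results for the block are therefore also given without it.

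Metal-ion mycelia carried several times more mRNA from most of the block, and the flanking genes stayed near the level of control. Of the 23 block genes 22 passed the filter, and 21 of them were called higher in metal-ion mycelia, where 6.66% of all tested genes were; the rule used this contrast, so nothing is read from the count. At least 2-fold higher were 20 (2.25% of tested genes) and at least 4-fold higher 16 (0.508%). The median log2 fold change of the 22 was 2.45, against 0.03 over all tested genes, and single genes lay between 0.23 and 2.99. In 21 of the 23, all 3 metal-ion libraries lay above all 3 control libraries in CPM, which held for 17.3% of tested genes. CPM here are counts scaled to library size times edgeR's TMM factor, while FPKM were used as deposited, so the measures can differ on overlap. Without metal-ion replicate 2, 21 genes were called higher, in a fit that called 14.4% of all tested genes higher, and the median was 2.44.

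As a share of the library, the block held 0.410, 0.384 and 0.480% of counts in metal-ion replicates 1 to 3 and 0.103, 0.0751 and 0.0848% in control replicates 1 to 3. The means were 0.425 ± 0.0498% in metal-ion and 0.0877 ± 0.0142% in control libraries (SD, n = 3 each). Each metal-ion library thus gave the block a larger share than any control library. The 8 flanking genes together held 0.0612 ± 0.00100% in metal-ion and 0.0580 ± 0.00112% in control libraries. Such shares are taken of a whole mycelial RNA pool, in which more cells making a transcript and more transcript per cell cannot be told apart.

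**Figure D1:**
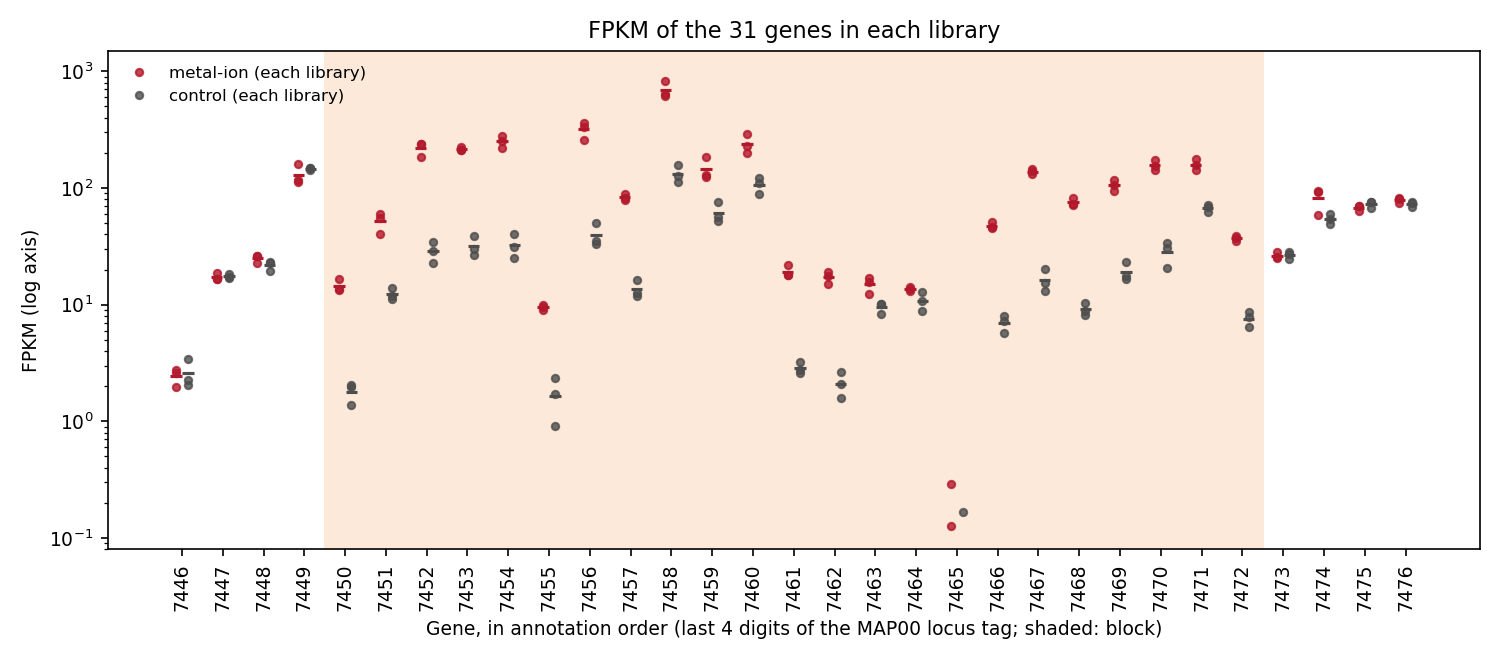
FPKM (log axis) of the 31 genes in annotation order, with metal-ion libraries left of control libraries, a point per library and a short bar at the mean of 3 (no mean is drawn for MAP00_007465, and its libraries at 0 are not shown). Within the shaded block metal-ion points lie above control points, narrowly so for MAP00_007464 and MAP00_007463, and MAP00_007465 is close to 0 in both groups.

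The left edge fell between CPR6 and MAP00_007450. CPR6 had 113, 161 and 118 FPKM in metal-ion replicates 1 to 3 and 144, 147 and 149 FPKM in control replicates 1 to 3. Metal-ion replicate 2 was the highest of the 6 and the other 2 metal-ion libraries the lowest, so the groups overlapped, and the log2 fold change was -0.27 ± 0.16 (SE). Without metal-ion replicate 2 it was -0.51 and the gene was called lower (edgeR adjusted p = 0.000890), in a fit that called 31% of all tested genes in either direction. The next gene, MAP00_007450, had 13.4, 13.6 and 16.7 FPKM in metal-ion libraries and 2.03, 1.39 and 1.95 FPKM in control libraries. Every metal-ion value exceeded every control value, and the log2 fold change was 2.91 ± 0.16.

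The right edge fell between MAP00_007472 and MAP00_007473. MAP00_007472 had 38.9, 37.6 and 35.2 FPKM in metal-ion libraries and 8.59, 7.80 and 6.41 FPKM in control libraries, a log2 fold change of 2.18 ± 0.13 with no overlap. MAP00_007473 had 28.2, 25.5 and 24.9 FPKM in metal-ion libraries, within reach of the 27.3, 28.0 and 24.8 FPKM of control libraries. Its log2 fold change was -0.14 ± 0.10. On both sides the step from a several-fold difference to none that passed took place between adjacent genes. Because the edges were placed by this difference, a step at them is tied to the choice, and nothing is read from it.

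None of the 8 flanking genes was called by edgeR, where 12% of all tested genes were. Of the 8, 1 had an unadjusted p under 0.05 in that test, a threshold for which no share over all genes is given. MAP00_007474 alone was called by DESeq2, by edgeR with total-count scaling and by edgeR with the replicate number as a block, which called 18.1, 13.3 and 15.1% of all genes they tested. Without metal-ion replicate 2, 3 of the 8 were called, where 31% of tested genes were, so these counts are near the share over all genes. Their log2 fold changes ran from -0.27 to 0.46 with a median of -0.14. The highest belonged to MAP00_007474, with 91.5, 58.7 and 94.5 FPKM in metal-ion libraries and 59.8, 49.2 and 54.1 FPKM in control libraries. Metal-ion replicate 2 lay within the control range for this gene and the other 2 metal-ion libraries above it. The log2 fold change of MAP00_007474 was 0.46 ± 0.15, and 0.62 without metal-ion replicate 2, where it was called (edgeR adjusted p = 0.000538). MAP00_007475, at 68.0 ± 4.04 FPKM in metal-ion and 73.3 ± 5.33 FPKM in control libraries (SD, n = 3), was called lower in that fit only (log2 fold change -0.30, edgeR adjusted p = 0.0474). MAP00_007447 had 18.7, 16.5 and 16.4 FPKM in metal-ion libraries and 17.0, 18.5 and 17.3 FPKM in control libraries. Its groups overlapped in FPKM, but in CPM the 3 metal-ion libraries lay below the 3 control libraries, as in 16% of tested genes, with a log2 fold change of -0.14 ± 0.10.

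The other flanking genes had levels in the same range in both groups. MAP00_007476 stood at 78.9 ± 3.92 FPKM in metal-ion and 73.3 ± 4.03 FPKM in control libraries, and MAP00_007448 at 25.0 ± 2.13 FPKM in metal-ion and 21.7 ± 2.10 FPKM in control libraries. MAP00_007446 was the scarcest, at 2.45 ± 0.412 FPKM in metal-ion and 2.58 ± 0.738 FPKM in control libraries, from 17 to 29 counts per library. Widening the view to 20 genes on each side, of 17 tested before the block 2 were called higher and 1 lower, and of 20 tested after it 2 were called higher, near the 6.66% higher and 5.32% lower over all tested genes. The nearest of these were MAP00_007442 and MAP00_007443, at log2 fold changes of 0.50 and 0.37. Directly after the flanking genes, MAP00_007477 and MAP00_007478 had log2 fold changes of 1.01 ± 0.51 and 1.57 ± 0.75 and were not called. Across all windows of 23 neighbouring genes that share no gene with the block, the highest number called and at least 2-fold higher was 5, against 20 in the block. The limits of the block were set from the same contrast, so nothing is read from this difference.

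**Figure D2:**
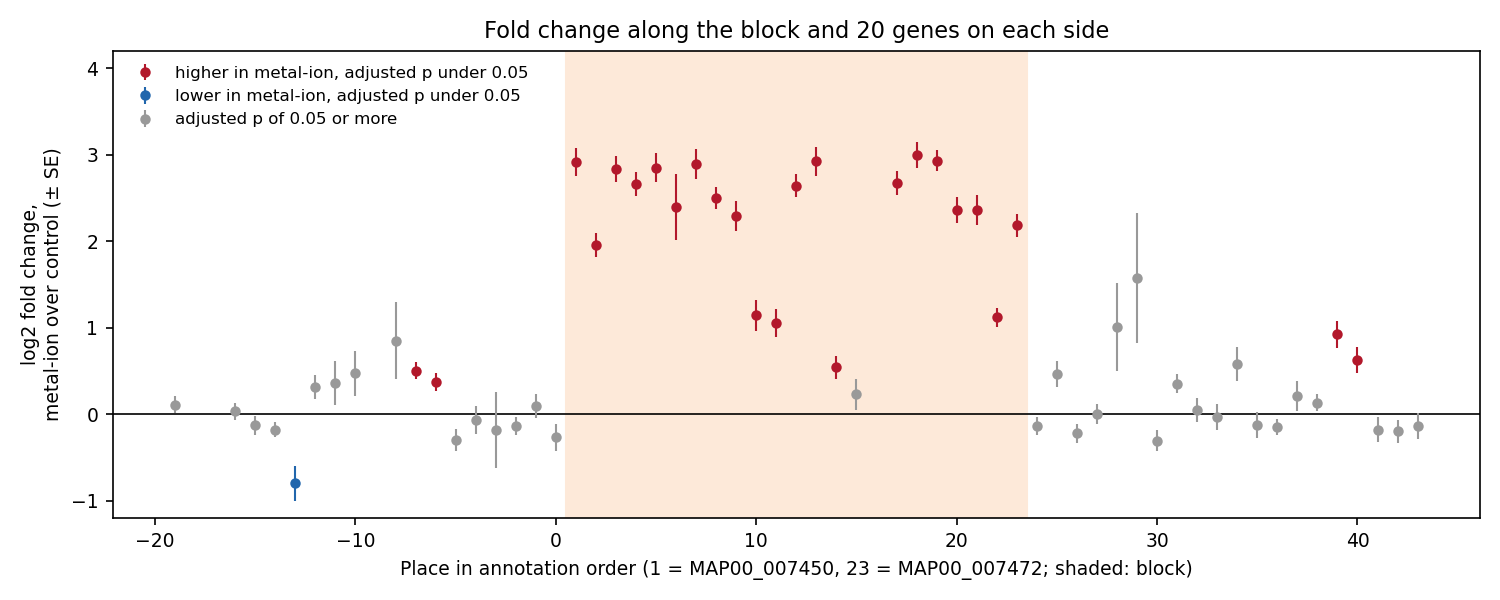
Log2 fold change, metal-ion over control, with its SE, for the 23 block genes (shaded) and 20 genes on each side in annotation order; genes that were not tested are left out. Values step up to 2.91 at MAP00_007450, dip to 0.54 and 0.23 at MAP00_007463 and MAP00_007464, and end at 2.18 with MAP00_007472.

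The 3 longest genes of the block were MAP00_007450, MAP00_007461 and MAP00_007462. Their implied lengths, from the ratio of count to FPKM, were 8570, 6382 and 6982 bases, with the total of each count column as library size, so that absolute lengths are approximate. The median was 1420 bases over the block and 1575 over tested genes, 6.58% of which reached 4000 bases. MAP00_007450 is the first gene of the block, and the other 2 are neighbours at its middle.

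The long genes differed several-fold between groups and had low FPKM beside most of the block. Their median log2 fold change was 2.91, against 2.36 over the other 19 tested block genes, which include those with little difference. Across the 22 tested block genes, implied length and log2 fold change were only weakly related (Pearson r = 0.30, Spearman rho = 0.28). MAP00_007461 had 18.0, 17.9 and 21.7 FPKM in metal-ion libraries and 3.24, 2.59 and 2.74 FPKM in control libraries. MAP00_007462 had 17.6, 15.1 and 18.9 FPKM in metal-ion libraries and 2.65, 1.59 and 2.08 FPKM in control libraries. The groups did not overlap for either gene, and their log2 fold changes were 2.64 ± 0.13 and 2.92 ± 0.17. The 3 means lay between 14.6 and 19.2 FPKM in metal-ion and between 1.79 and 2.86 FPKM in control libraries. MAP00_007462 overlapped with the other 2 in both groups, while MAP00_007461 stood above MAP00_007450 in every library.

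Read counts put the long genes higher than their FPKM does, because FPKM divides by length. MAP00_007450 averaged 120 CPM in metal-ion and 15.9 CPM in control libraries, and MAP00_007468 averaged 106 CPM in metal-ion and 13.9 CPM in control libraries. The implied length of MAP00_007468 is 1465 bases, and its FPKM was 75.5 ± 5.45 in metal-ion and 9.15 ± 1.09 in control libraries. Per length, MAP00_007450 exceeded 44.8% of tested genes in metal-ion and 14.3% in control libraries. MAP00_007461 exceeded 52.5% in metal-ion and 19.6% in control libraries, and MAP00_007462 exceeded 49.3% in metal-ion and 16.1% in control libraries. Across the 22 tested genes of the block, length and metal-ion FPKM were weakly related (Pearson r = -0.22, Spearman rho = -0.16, a description over genes that share libraries and in which length enters FPKM).

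**Figure D3:**
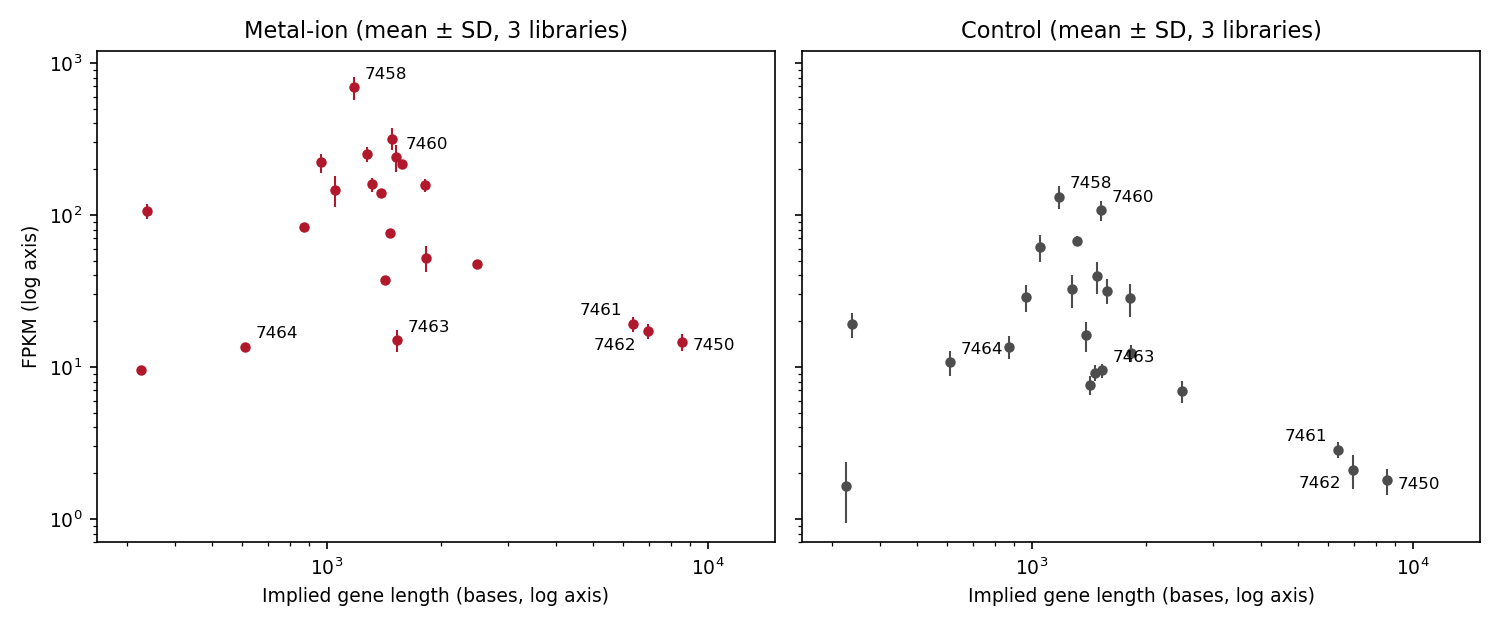
FPKM (log axis, mean ± SD of 3 libraries) against implied gene length (log axis) for the 22 tested block genes, metal-ion on the left and control on the right. The 3 longest genes lie between 14.6 and 19.2 FPKM in metal-ion and between 1.79 and 2.86 FPKM in control libraries, far under MAP00_007458.

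The steepest difference of the block was that of MAP00_007467, followed by MAP00_007468. MAP00_007467 had 132, 139 and 144 FPKM in metal-ion libraries and 20.2, 13.1 and 15.4 FPKM in control libraries, a log2 fold change of 2.99 ± 0.15. MAP00_007468 had 72.8, 71.9 and 81.7 FPKM in metal-ion libraries and 10.4, 8.23 and 8.87 FPKM in control libraries, a log2 fold change of 2.93 ± 0.12. The metal-ion libraries of both genes were close to each other and several times above control. These 2 neighbours and MAP00_007462 and MAP00_007450 held the 4 highest values, which differ from each other by less than their standard errors.

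The most abundant gene was MAP00_007458, with 610, 639 and 829 FPKM in metal-ion libraries and 157, 112 and 127 FPKM in control libraries. Its metal-ion libraries were above those of every other block gene, and its log2 fold change was 2.29 ± 0.17. It exceeded 98.1% of tested genes per length in metal-ion and 91.2% in control libraries. MAP00_007456 had 335, 259 and 359 FPKM in metal-ion libraries and 50.01, 33.0 and 35.4 FPKM in control libraries. MAP00_007454 had 253, 220 and 280 FPKM in metal-ion libraries and 40.6, 25.2 and 31.2 FPKM in control libraries. Neither gene's groups overlapped, with log2 fold changes of 2.89 ± 0.17 for MAP00_007456 and 2.85 ± 0.17 for MAP00_007454, but in metal-ion libraries the 2 overlapped with each other.

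MAP00_007452, MAP00_007453 and MAP00_007454 lie in a row with similar levels, at 221 ± 31.3, 217 ± 8.24 and 251 ± 29.9 FPKM in metal-ion libraries and 28.7 ± 5.85, 31.8 ± 6.01 and 32.3 ± 7.78 FPKM in control libraries (SD, n = 3). Their log2 fold changes were 2.83 ± 0.15, 2.66 ± 0.14 and 2.85 ± 0.17. In the annotation used here, of strain KUPM5, the models of MAP00_007453 and MAP00_007454 touch without a base between them. The library kit does not mark strand, so reads that span the border could fall to either, if the deposited counts used the same models. No models of neighbouring genes among the 31 overlap in this annotation.

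A group of 3 genes differed about 2-fold from high control levels. MAP00_007460 had 230, 198 and 293 FPKM in metal-ion libraries and 122, 89.0 and 111 FPKM in control libraries, a log2 fold change of 1.05 ± 0.16. MAP00_007471 had 158, 142 and 176 FPKM in metal-ion libraries and 68.8, 72.2 and 61.9 FPKM in control libraries, a log2 fold change of 1.12 ± 0.11. Their groups did not overlap. The log2 fold changes were smaller than the 2.64 of MAP00_007461 beside MAP00_007460, and than the 2.36 and 2.18 of MAP00_007470 and MAP00_007472 beside MAP00_007471. MAP00_007459, next to MAP00_007460, was alike, at 146 ± 33.1 FPKM in metal-ion and 61.3 ± 12.6 FPKM in control libraries (SD, n = 3) and a log2 fold change of 1.14 ± 0.18. By mean FPKM within the block, MAP00_007460 ranked 4 in metal-ion and 2 in control libraries, MAP00_007471 ranked 7 in metal-ion and 3 in control libraries, and MAP00_007459 ranked 9 in metal-ion and 4 in control libraries.

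The division of the block's own counts moved with these genes. MAP00_007460 took 8.52 ± 0.696% of the block's counts in metal-ion and 18.6 ± 0.986% in control libraries (SD, n = 3), MAP00_007471 took 4.91 ± 0.100% in metal-ion and 10.3 ± 2.01% in control libraries, and MAP00_007459 took 3.57 ± 0.391% in metal-ion and 7.32 ± 0.394% in control libraries. MAP00_007456 went the other way, with 11.045 ± 0.992% in metal-ion and 6.65 ± 0.549% in control libraries. MAP00_007458 held a similar part in both, 19.1 ± 1.54% in metal-ion and 17.7 ± 0.265% in control libraries. A smaller share here means a smaller fold change than that of the block's counts as a whole, not a lower level.

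**Figure D4:**
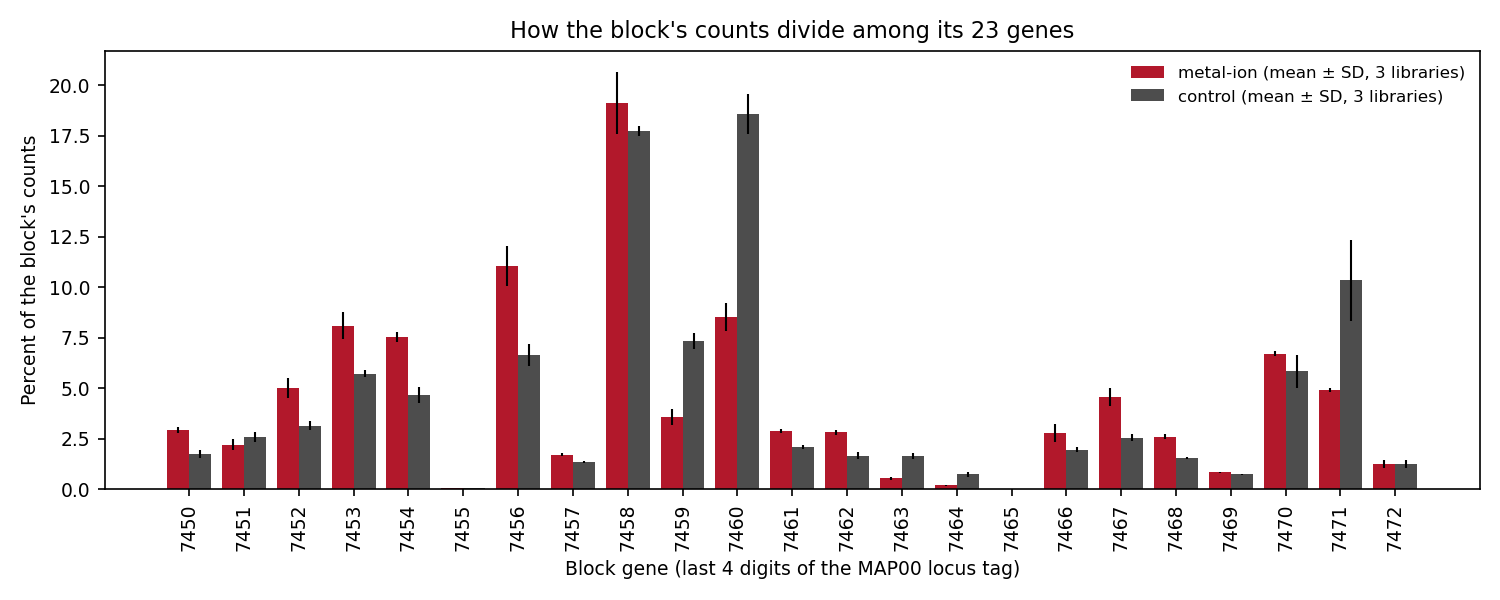
Share of the block's counts taken by each of its 23 genes, as the mean ± SD of 3 libraries, metal-ion left of control. MAP00_007458 leads in metal-ion libraries at 19.1%, and MAP00_007460 leads in control libraries at 18.6% but holds 8.52% in metal-ion libraries.

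In a row inside the block lie 3 genes with little or no difference, MAP00_007463, MAP00_007464 and MAP00_007465, directly after the long gene MAP00_007462 and before MAP00_007466, which was 2.67 ± 0.14 higher on the log2 scale. MAP00_007463 had 16.9, 12.3 and 15.7 FPKM in metal-ion libraries and 10.04, 8.28 and 10.1 FPKM in control libraries. The groups did not overlap, and its log2 fold change of 0.54 ± 0.13 was called in the fit of all libraries, but in the fits without 1 library it was called only without metal-ion replicate 2.

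MAP00_007464 had 13.6, 13.1 and 14.1 FPKM in metal-ion libraries and 12.7, 10.7 and 8.76 FPKM in control libraries. All 3 metal-ion values exceeded control in FPKM, narrowly, but the groups overlapped in CPM. Its log2 fold change was 0.23 ± 0.18, and it was not called in the fit of all libraries or in any other fit. MAP00_007465 was listed with 0, 2 and 3 counts in metal-ion replicates 1 to 3 and 0, 2 and 0 counts in control replicates 1 to 3, was removed by the filter, and is too scarce for a fold change. In metal-ion libraries MAP00_007463 and MAP00_007464, at 14.98 ± 2.38 and 13.6 ± 0.468 FPKM, overlapped with the long gene MAP00_007450; in control libraries, at 9.46 ± 1.03 and 10.7 ± 1.99 FPKM, they were above all 3 long genes.

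The remaining 6 genes lay between these extremes. MAP00_007451, MAP00_007457, MAP00_007466, MAP00_007469 and MAP00_007470 averaged 47.6 to 157 FPKM in metal-ion and 6.96 to 28.3 FPKM in control libraries, with log2 fold changes of 1.95 to 2.67 and no overlap between groups. MAP00_007455 was scarce and short, with an implied length of 326 bases. It had 102, 126 and 109 counts in metal-ion libraries and 26, 11 and 19 counts in control libraries, and its log2 fold change of 2.39 ± 0.38 had the widest error of the block.

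Levels within the block spanned a 72.9-fold range of mean FPKM in metal-ion and a 79.7-fold range in control libraries over the 22 tested genes. The order of levels was much the same in both groups (Spearman rho = 0.90, Pearson r = 0.89 on log2 FPKM, n = 22 genes, a description of genes that share libraries and lengths). Control level and fold change were only weakly related (Spearman rho = -0.29). Control level is also the denominator of the fold change, which by itself favours a negative value, so nothing is read from this relation.

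Within each group the same libraries were high or low for most genes of the block. Metal-ion replicate 3 was the highest metal-ion library in CPM for 18 of the 22 tested genes and metal-ion replicate 1 the lowest for 14, with median deviations from the group mean of 0.16 and -0.12 on the log2 scale. Control replicate 1 was the highest control library for 20 genes, with a median deviation of 0.25, and control replicate 2 the lowest for 18, at -0.21. Over all tested genes, metal-ion replicate 3 was the highest of its group for 30.7%, metal-ion replicate 1 the lowest for 33.7%, control replicate 1 the highest of its group for 31.4% and control replicate 2 the lowest for 32.5%; the difference from the block was not tested. The size of the fold changes moved with the libraries kept, as the median log2 fold change of the block was 2.41 without metal-ion replicate 3, 2.68 without control replicate 1 and 2.34 without control replicate 2.

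On the first principal component over tested genes (60.1% of variance), metal-ion replicate 2 lay nearer to control than the other 2 metal-ion libraries did. It had the smallest share of counts in the block of the 3 metal-ion libraries, at 0.384%. On the scaled log2 level, however, the block genes in this library differed from control as those in the other 2 did. The 21 called genes of the block had a median log2 difference from the control mean of 2.47 in metal-ion replicate 2 and of 2.46 in the mean of replicates 1 and 3. Over the 481 genes called lower in metal-ion mycelia the same medians were -0.32 and -0.74, and over the other 582 genes called higher they were 0.62 and 0.77. All of these genes were called with that library included, and the difference between the sets was not tested. Among the 184 of the 582 that were at least 2-fold higher the medians were 1.22 and 1.33, with a median ratio per gene of 0.98, against 0.97 in the block.

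Of 9 lists of genes for pigment precursors, polyketides, citrinin and zinc, matched by symbol, 8 matched none. Many genes have no symbol beyond the locus tag and no product names were available. A list without a match thus does not show that such genes are absent. The fatty acid synthase list held FAS1 (MAP00_008691), named for a subunit of the enzyme that builds fatty acids, which is not in the block. FAS1 had 99.0, 85.2 and 121 FPKM in metal-ion libraries and 98.6, 90.5 and 98.4 FPKM in control libraries. The groups overlapped, and its log2 fold change was -0.03 ± 0.13 (edgeR adjusted p = 0.910). Its implied length of 7034 bases is close to that of MAP00_007462, which in metal-ion libraries had 17.2 ± 1.94 FPKM. AGNPKS1 (MAP00_007225) is named here after its symbol was seen to contain PKS without matching a pattern. It was scarce, with 29, 1 and 8 counts in metal-ion libraries and 6, 11 and 12 counts in control libraries. Its implied length was only 395 bases, and its log2 fold change was 0.19 ± 0.83 (edgeR adjusted p = 0.905).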

How the data were processed

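Libraries were made from TRIzol-extracted, mRNA-enriched RNA with a NEBNext Ultra kit, which does not mark strand, and run on an Illumina HiSeq, per the labels' protocols. Reads were handled with TopHat2, per the submitters' processing notes. The counting tool, genome build and annotation are not given in the sources used here, so no coordinates are given. The authors deposited whole-number counts per gene and FPKM values, which divide counts by gene length and library size, for 9836 genes. Columns were matched by sample description and groups came from titles. Symbols, gene order and the borders of gene models came from the annotation of assembly ASM2599979v1 (strain KUPM5).

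Counts of all 6 libraries were fitted with edgeR 4.0.16 in R 4.3.3 (TMM scaling, default low-count filter, two-sided quasi-likelihood test, Benjamini-Hochberg over 9048 genes; 788 were left out). The SE is the log2 fold change divided by the square root of its F statistic. Alternatives were DESeq2 1.42.0, limma 3.58.1 on log2(FPKM + 1) and log2(FPKM + 0.1), other scalings, no filter, the replicate number as a block, and removal of each library. The genes described and the lists were chosen with earlier results of these data known. Values in every library are given for the 4 highest and 4 lowest fold changes, the 3 highest FPKM, genes over 4000 bases, the genes at the edges and the block genes not called. Same-numbered libraries were not treated as pairs, since nothing in the labels pairs them. The deviations of the numbers 1, 2 and 3 correlated at 0.04, 0.19 and 0.10. These values cannot decide whether the libraries are paired, because deviations within a group of 3 depend on each other. Genome and protein sequences were not used here.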

Additional observations from a re-analysis of the deposited data

How the results depend on the processing

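Of 390 values of single genes under 13 alternatives, 371 kept their direction and their side of the threshold. The 21 called block genes were called under all 7 alternatives that kept every library, and 20 or 21 without any 1 library; the gene lost was MAP00_007463 (adjusted p = 0.0752 to 0.139). The block's median log2 fold change ranged from 2.34 to 2.68 over all alternatives. The count of all called genes was 348 to 2829 without 1 library, and 1017 to 1582 under the others. With the replicate number as a block, 1365 genes were called, 21 of them in the block, and MAP00_007474 was called (adjusted p = 0.0334), as it was with total-count scaling and DESeq2 (adjusted p = 0.0432 and 0.0285). Metal-ion libraries correlated best with the control library of the same number, but control replicate 1 did so with metal-ion replicate 3. Total-count scaling moved the median of all genes to 0.14 and that of the block to 2.55. MAP00_007476, near 0, turned positive at 0.10 with total-count scaling, 0.11 with limma at either pseudocount, 0 without the filter, and in the fits without 1 library, which ran from -0.08 to 0.08, at 0.08 without metal-ion replicate 1, 0.03 without control replicate 1 and 0.01 without control replicate 2; MAP00_007446 ran from -0.34 to 0.06 in those fits, positive without control replicate 1. Neither was called in any fit. Promoter motifs were not run, since no promoter sequences were at hand. Depth limits MAP00_007446, MAP00_007455 and MAP00_007465, which had fewer than 50 counts in at least 1 library.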
